A study of Mus musculus with 10 samples.

Results

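The genes described here encode the contractile, calcium-handling and fuel proteins of skeletal muscle, 38 in all, split by the fibre type in which each is best known. They were chosen by name, with earlier results of these data known. The shares over all tested genes given below are therefore a scale for the counts and not a test. Each gene was measured by the probe sets (the short oligonucleotide sets that stand for a transcript on the array) that the platform annotation assigns to it. Of the 38 genes, 36 had a probe set, with 49 probe sets between them, and Ttn and Ampd1 had none. A value was tested where it rose above a floor, log2 intensity 4.75, on at least 2 of the 9 arrays with a strain name, and 30 of the 38 genes passed this filter, among 7098 genes tested of 8251 with a probe set. Myh2, Myh3, Tnnc1, Myl3, Actn2 and Chrna1 did not pass it.

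The arrays were hybridised with total RNA of mammary tumours from female mice 90 days old, in a series about MMTV-PyMT mice, where a viral promoter active in mammary epithelium drives the polyomavirus middle T oncogene. Strain names in the titles gave 5 groups: FVBn with 1 array, and ILn, LP, MOLF and NZB with an A array and a B array each. All arrays carry FVB/Nj as their strain label, so the groups depend on the title names, and the titles describe each of these 9 hybridisations as a mix without further detail. One further array has no strain name in its title and was kept out of every comparison. No label states that the A and B arrays of a strain came from different mice, so the p-values describe only how far the paired arrays differ, and that spread could be technical. In tissue RNA of this kind, fewer cells of a type and less RNA per cell cannot be told apart.

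Skeletal muscle fibres contract when calcium leaves the sarcoplasmic reticulum, binds troponin on the thin filament and lets myosin pull on actin. Fast fibres build this machine from one set of myosins, troponins and calcium pumps and burn glycogen, whereas slow fibres use other genes of the same families and rely more on oxygen. The mammary fat pad lies against the muscle of the body wall.

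Acta1, Myh4, Myh1 and Tnnc2 were the members that passed the test between LP and ILn, a narrower gap than LP against MOLF, and their upstream windows are printed here so that the letters before each start can be compared. Each line gives the 250 bases before the annotated start, 5′ to 3′ on the gene's strand, from RefSeq on GRCm38.p6: chr8:123894776-123895025 on the minus strand for Acta1, chr11:67237562-67237811 on the plus strand for Myh4, chr11:67199852-67200101 on the plus strand for Myh1 and chr2:164779735-164779984 on the minus strand for Tnnc2. Capitals mark TATAAA on either strand, CAGCTG and the CArG box.
Acta1: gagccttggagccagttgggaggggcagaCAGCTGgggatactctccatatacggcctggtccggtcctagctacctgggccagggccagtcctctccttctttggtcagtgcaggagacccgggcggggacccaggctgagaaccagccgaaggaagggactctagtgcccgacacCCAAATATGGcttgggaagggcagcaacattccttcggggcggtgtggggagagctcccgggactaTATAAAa
Myh4: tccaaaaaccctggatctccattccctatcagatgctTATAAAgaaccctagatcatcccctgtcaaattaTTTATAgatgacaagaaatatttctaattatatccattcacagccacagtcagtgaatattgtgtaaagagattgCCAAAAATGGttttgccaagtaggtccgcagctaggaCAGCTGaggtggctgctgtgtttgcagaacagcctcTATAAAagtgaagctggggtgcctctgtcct
Myh1: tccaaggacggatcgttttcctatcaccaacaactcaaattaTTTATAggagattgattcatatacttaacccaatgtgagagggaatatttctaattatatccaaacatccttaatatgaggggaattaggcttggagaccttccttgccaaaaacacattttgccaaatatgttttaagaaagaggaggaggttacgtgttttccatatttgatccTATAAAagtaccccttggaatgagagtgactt
Tnnc2: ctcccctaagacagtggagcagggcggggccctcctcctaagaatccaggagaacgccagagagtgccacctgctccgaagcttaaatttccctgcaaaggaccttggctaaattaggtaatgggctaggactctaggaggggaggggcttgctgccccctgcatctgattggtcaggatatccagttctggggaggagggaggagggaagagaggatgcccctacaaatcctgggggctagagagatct

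TATAAA is the core of the TATA box, CAGCTG is an E-box form that myogenic factors can bind, and the CArG box is the site of serum response factor; matches of the first and last can overlap. The Acta1 window holds a match of each kind, Myh4 has 3 TATAAA matches with 1 of each other kind, Myh1 has 2 TATAAA matches alone, and Tnnc2 has none of these letters. Windows were found for 32 of the 38 genes, 40 windows in all. CAGCTG was in 18 of them (45.0%, against 13.0% of 32851 windows in the whole table), the CArG box in 6 (15.0% against 1.47%) and TATAAA in 8 (20.0% against 12.4%). A match describes the letters and is not a measured site.

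For 10 of the 11 fast fibre genes tested, all 4 LP and NZB arrays lay above the 5 ILn, MOLF and FVBn arrays, Mylpf being the exception. This held for 1.42% of all tested genes. Of the 11 fast genes tested, 6 were higher in LP than in MOLF past the limma test (Benjamini-Hochberg adjusted p under 0.05 over all probe sets): Myh4, Myh1, Actn3, Tnnc2, Myl1 and Casq1. In NZB against MOLF 4 of the 11 passed and in LP against ILn 3, where 0.394% of all tested genes passed in each. By limma 0 of the 11 passed in NZB against ILn and 0 in ILn against MOLF (0.282% and 0.366% of all tested genes). An unadjusted limma p under 0.05 was found for 10 of the 11 in NZB against ILn (620 of 7098 tested genes). In ILn against MOLF it was found for 6 (506 of 7098). Over all 30 tested members 10 passed in LP against MOLF, all higher in LP. There 0.324% of all tested genes were higher and 0.437% passed in either direction. The median difference was 2.77 on the log2 scale over the fast genes and 2.34 over the 30 members, against 0.0 over all tested genes.

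Myh4, the heavy chain of the fastest fibres, had a log2 intensity of 11.04 and 10.37 on the LP arrays, 10.29 and 9.85 on NZB, 8.08 and 8.38 on ILn, 6.51 and 6.91 on MOLF and 4.91 on FVBn. The groups did not overlap, and every step down this order was visible on both arrays. LP exceeded MOLF 15.9-fold (log2 difference 3.99, SE 0.296, adjusted p = 0.00401) and ILn 5.55-fold (log2 difference 2.47, adjusted p = 0.0191), and NZB exceeded MOLF 10.3-fold (adjusted p = 0.00828). When MOLF A and NZB B, a pair of arrays unlike the rest, were left out, the LP to MOLF call of Myh4 did not hold (adjusted p = 0.0775). Myh1, a fast heavy chain whose gene lies next to Myh4 on chromosome 11, measured 9.09 and 9.12 in LP, 8.63 and 8.23 in NZB, 6.79 and 6.74 in ILn, 5.35 and 5.36 in MOLF and the floor value in FVBn. Its groups kept the same order without overlap. The LP to MOLF difference was 13.4-fold (log2 3.75, SE 0.287, adjusted p = 0.00415) and the LP to ILn difference 5.06-fold (adjusted p = 0.0204). The third fast heavy chain of adult muscle, Myh2, was at the floor on all 10 arrays.

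The thin filament and light chain genes of fast fibres followed. Tnnc2, the calcium-binding troponin of fast fibres, measured 9.83 on both LP arrays, 8.99 and 9.09 in NZB, 7.18 and 7.71 in ILn, 6.97 and 6.66 in MOLF and 6.40 in FVBn. LP was 8.07-fold above MOLF (log2 difference 3.01, SE 0.245, adjusted p = 0.00523) and 5.21-fold above ILn (adjusted p = 0.0106), and neither call held once MOLF A and NZB B were left out (0.0701 and 0.0521). Here ILn and MOLF lay close, at a log2 difference of 0.63 that did not pass (adjusted p = 0.647). Tnnt3, the fast troponin that ties the complex to tropomyosin, had a wide spread in MOLF (6.86 and 5.16) and in NZB (8.54 and 9.59), with LP at 9.30 and 9.09, and its difference of 3.18 between LP and MOLF did not pass (SE 0.584, adjusted p = 0.107). Tnni2, the inhibitory fast troponin, was at the floor on both MOLF arrays and at 6.83 and 6.70 in LP, at least 4.03-fold higher (adjusted p = 0.0792).

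Myl1, an essential light chain of fast myosin, measured 10.17 and 10.05 in LP, 9.91 and 9.79 in NZB, 8.94 and 8.36 in ILn, 7.48 and 7.20 in MOLF and 6.69 in FVBn. It was 6.80-fold higher in LP than in MOLF (SE 0.231 on the log2 scale, adjusted p = 0.00523) and 5.69-fold higher in NZB than in MOLF (adjusted p = 0.00895), calls that did not hold without MOLF A and NZB B (0.0913 and 0.18). The groups did not overlap, although LP and NZB were only 0.26 apart on the log2 scale. Mylpf, the regulatory light chain of the same myosin, ran from 7.97 and 8.12 in LP to 6.41 and 6.92 in MOLF, a difference of 1.38 that did not pass (adjusted p = 0.171).

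The Z-disc gene Actn3 and the calcium store Casq1 had strain means in the same order, and Pvalb, described further on, did not. Actn3, the fast fibre actinin of the Z-disc, measured 8.72 and 8.78 in LP, 8.29 and 8.44 in NZB, 6.53 and 6.55 in ILn, 6.20 on MOLF B and the floor on MOLF A and FVBn. The LP to MOLF difference of 3.27 passed (SE 0.472, adjusted p = 0.0424), with the MOLF mean held up by the floor. The call did not hold with the title date as a block (adjusted p = 0.0952) or when MOLF A and NZB B were left out (0.0701). Casq1, which stores calcium in the reticulum of fast fibres, measured 9.31 and 9.32 in LP, 8.90 and 8.86 in NZB, 8.04 and 7.85 in ILn, 6.96 and 7.69 in MOLF and 7.63 in FVBn. FVBn fell between the MOLF arrays, below the rest. LP stood 3.99-fold above MOLF (adjusted p = 0.0259), and this call did not hold with the date as a block (0.0829) or with MOLF A and NZB B left out (0.0983).

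**Figure D1:**
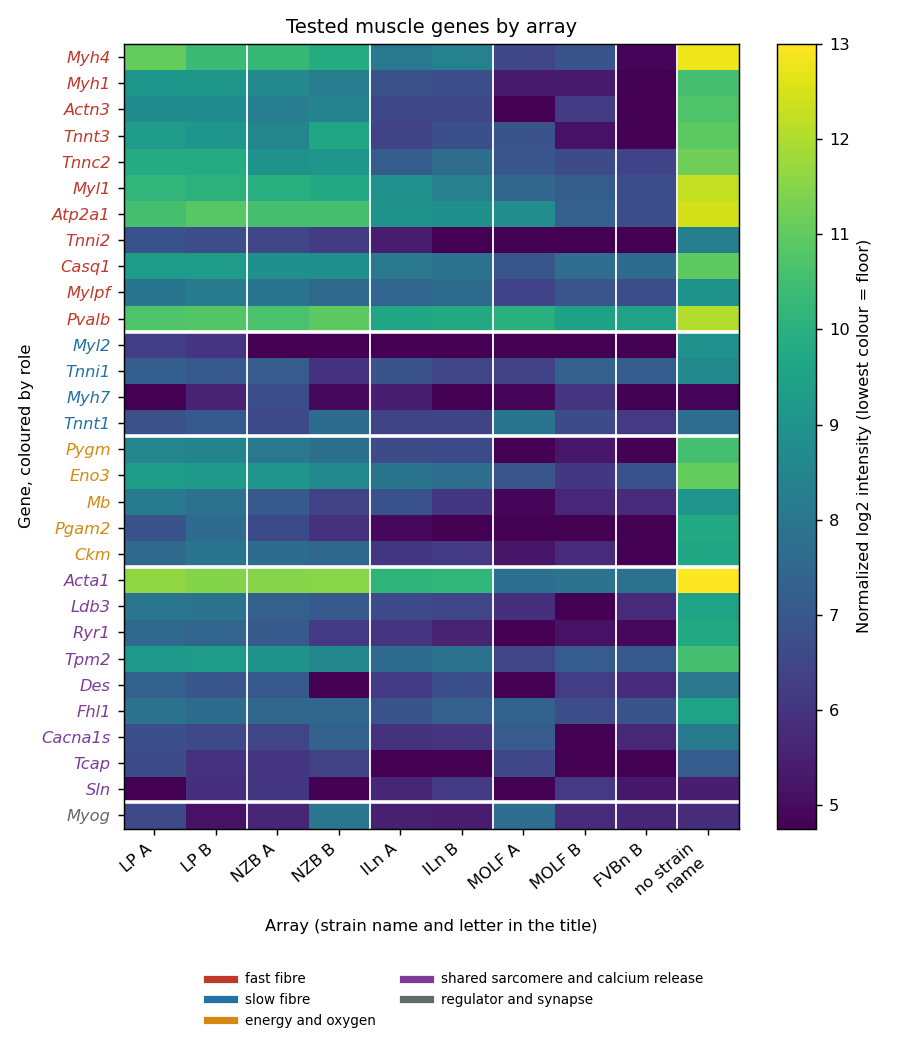
Normalized log2 intensity (colour) of the 30 tested muscle genes (rows, by role) on the 10 arrays (columns, by title name and letter), with the lowest colour at the floor of 4.75. In the fast block the LP and NZB columns are bright and the MOLF and FVBn columns dark, while the slow block shows no such split; Acta1 runs from 7.78 on MOLF A to 11.64 on LP A and 13.0 on the array with no strain name.

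Of the 6 slow fibre genes 4 were tested, and none passed in any of the 8 comparisons by limma. In LP against MOLF 1 of the 4 had an unadjusted limma p under 0.05, where 457 of 7098 tested genes did. Between 0.0141% and 0.662% of all tested genes passed in the 8 comparisons, so 0 of 4 does not set the slow genes apart from other genes. Their median LP to MOLF difference was 0.01, with a range of −0.35 to 1.37, against 1.05 to 3.99 for the 11 fast genes. Both LP arrays lay above both MOLF arrays for 11 of 11 fast genes and 1 of 4 slow genes, where 17.8% of all tested genes did so.

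Tnni1, the inhibitory troponin of slow fibres, measured 7.22 and 7.03 in LP, 7.13 and 5.95 in NZB, 6.87 and 6.49 in ILn, 6.35 and 7.29 in MOLF and 7.15 in FVBn. The groups overlapped, and its LP to MOLF difference of 0.31 was within its SE of 0.507. Tnnt1, the slow counterpart of Tnnt3, was highest on MOLF A (7.92) and NZB B (7.66) and between 6.12 and 7.04 on the other 7 strain arrays. Its difference was −0.35 (SE 0.536, adjusted p = 0.903), and it became 0.29 without MOLF A.

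Myl2, the regulatory light chain of slow and heart muscle, among the 9 strain arrays lay above the floor only on the LP arrays (6.12 ± 0.18, SD, n = 2), and it passed the filter through those arrays alone. It was at least 2.58-fold higher in LP than in MOLF, with an adjusted p of 0.0595. Myh7, the slow heavy chain, ranged from the floor to 6.73 (NZB A) in its tested probe set, where NZB B was at 4.95, and its LP to MOLF difference was −0.28 (SE 0.666). Its other probe set exceeded the floor on 1 strain array, LP A, at 6.77. Tnnc1, the slow counterpart of Tnnc2, and Myl3, the essential light chain of slow fibres, were at the floor on all 9 strain arrays, while Myh3, the embryonic heavy chain, was just above it on MOLF A alone (4.87).

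**Figure D2:**
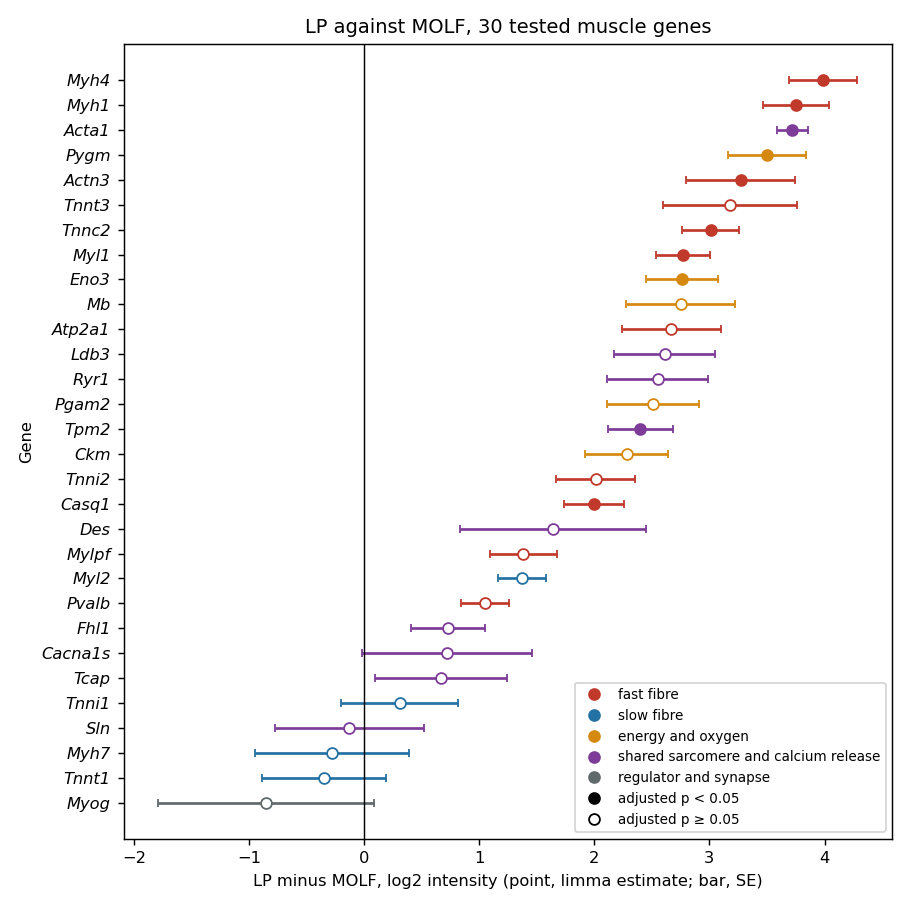
Difference between LP and MOLF in log2 intensity (horizontal axis) for each of the 30 tested muscle genes, as the limma estimate (point) with its SE (bar), filled where the adjusted p was under 0.05. The 11 fast genes lie between 1.05 and 3.99, and 3 of the 4 slow genes lie between −0.35 and 0.31.

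All 5 tested genes for energy supply had strain means in the order LP, NZB, ILn, MOLF, where 3.66% of all tested genes did. Of the 5, 2 were higher in LP than in MOLF past the test (0.324% of all tested genes), and the median difference was 2.75. Pygm, the glycogen phosphorylase of muscle, measured 8.57 and 8.48 in LP, 8.10 and 7.81 in NZB, 6.63 and 6.60 in ILn, 5.29 on MOLF B and the floor on MOLF A and FVBn. LP stood 11.3-fold above MOLF (SE 0.342 on the log2 scale, adjusted p = 0.008) and NZB 7.64-fold (adjusted p = 0.0201), with folds held down by the floor on MOLF A. Eno3, the muscle enolase of glycolysis, measured 9.35 and 9.18 in LP, 9.05 and 8.70 in NZB, 7.94 and 7.69 in ILn, 6.93 and 6.08 in MOLF and 6.82 in FVBn. It was 6.77-fold higher in LP than in MOLF (SE 0.315 on the log2 scale, adjusted p = 0.0156) and 5.18-fold higher in NZB than in MOLF (adjusted p = 0.0333). For both genes MOLF and FVBn were the lowest groups, and for Eno3 these overlapped.

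Ckm, the muscle creatine kinase that buffers ATP, differed by 2.28 between LP and MOLF (SE 0.358, adjusted p = 0.0605). Pgam2, the muscle phosphoglycerate mutase, was at the floor in MOLF and FVBn and at 6.88 and 7.65 in LP, at least 5.70-fold higher (adjusted p = 0.061). Mb, the myoglobin that stores oxygen and is most abundant in oxidative fibres, measured 8.20 and 7.86 in LP, 7.07 and 6.36 in NZB, 6.82 and 6.10 in ILn, 4.88 and 5.67 in MOLF and 5.74 in FVBn. Its LP to MOLF difference was 2.75 (adjusted p = 0.0825). These 3 missed the threshold, yet both LP arrays lay above both MOLF arrays for each, as for 17.8% of all tested genes.

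Sarcomere and calcium release genes used by both fibre types were mixed. Acta1, the actin of skeletal thin filaments, had the smallest p-value of the members: 11.64 and 11.48 in LP, 11.49 and 11.55 in NZB, 10.12 and 10.17 in ILn, 7.78 and 7.90 in MOLF and 7.87 in FVBn. LP and NZB overlapped, FVBn fell between the MOLF arrays, and ILn lay apart from both sets. LP was 13.2-fold above MOLF (SE 0.135 on the log2 scale, adjusted p = 0.000119), NZB 12.8-fold (adjusted p = 0.000129) and ILn 4.95-fold (adjusted p = 0.000666). Against ILn, LP was 2.67-fold higher (adjusted p = 0.00826) and NZB 2.59-fold (adjusted p = 0.0101). The LP to MOLF and ILn to MOLF calls of Acta1 held under all 8 other settings and with each of the 9 strain arrays left out. The LP to ILn call did not hold under median centring (adjusted p = 0.214), with the date block (0.156) or without any 1 LP or ILn array. The NZB to ILn call held under 4 of the 8 settings and with 4 of the 9 arrays left out, and had an adjusted p of 0.555 under median centring and 0.0719 with the date block.

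Tpm2, a tropomyosin along the thin filament, measured 9.14 and 9.30 in LP, 8.96 and 8.57 in NZB, 7.63 and 7.83 in ILn, 6.49 and 7.15 in MOLF and 7.05 in FVBn, the last within the MOLF range. Its LP to MOLF difference was 2.40 (SE 0.282, adjusted p = 0.0182), and the call did not hold once MOLF A and NZB B were left out (adjusted p = 0.0775). Ryr1, the calcium release channel, had 7.57 and 7.44 in LP against 5.15 on MOLF B and the floor on MOLF A, a difference of 2.55 that did not pass (adjusted p = 0.0825). Ldb3, a Z-disc PDZ protein, differed by 2.61 (adjusted p = 0.0792). Both had all 4 LP and NZB arrays above the other 5 strain arrays, as 1.42% of all tested genes had.

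The remaining shared genes differed less or varied between the arrays of a strain. Cacna1s, the voltage sensor that opens Ryr1, measured 7.13 on MOLF A and the floor on MOLF B, so its LP to MOLF difference of 0.72 had an SE of 0.737. Tcap, the titin cap, had the same split (6.51 on MOLF A, the floor on MOLF B) and a difference of 0.67. Des, the intermediate filament that links Z-discs, was at the floor on MOLF A and NZB B and between 5.77 and 7.33 on the other 7 strain arrays, with a difference of 1.64 (SE 0.805). Fhl1, a LIM-domain protein of muscle, differed by 0.73 (adjusted p = 0.812). Sln, sarcolipin, which restrains the calcium pump, differed by −0.13 (SE 0.648). Actn2, the actinin of all fibres, rose above the floor on NZB B alone (5.34).

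Myog, the transcription factor that drives muscle differentiation, was highest on MOLF A (7.70) and NZB B (7.99) and between 5.17 and 6.56 on the other strain arrays. Its LP to MOLF difference was −0.85 (SE 0.937). Chrna1, a subunit of the acetylcholine receptor at the neuromuscular synapse, was at the floor on all 10 arrays.

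Fewer members passed in the other comparisons. In the F test over ILn, LP, MOLF and NZB 8 of 30 members passed (0.662% of all tested genes): Acta1, Eno3, Myh1, Myh4, Myl1, Pygm, Tnnc2 and Tpm2. In NZB against MOLF 8 of 30 were higher (0.254% of all genes were higher, 0.394% passed), with a median of 1.57, and Tpm2 passed narrowly (adjusted p = 0.05 after rounding). In LP against ILn 4 were higher (0.141% of all genes higher, 0.394% passed), with a median of 1.46. Acta1 alone passed in NZB against ILn (1 of 30, 0.0423% of all genes higher, 0.282% passed, median 1.07) and in ILn against MOLF (1 of 30, 0.282% higher, 0.366% passed, median 0.63). Of the 8 NZB to MOLF calls that of Acta1 alone held under median centring or with the date block, and none held without MOLF A and NZB B, where Acta1 had an adjusted p of 0.0588. These comparisons share arrays, so their values are not independent of each other.

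In LP against NZB 0 of 30 passed in limma (0.0141% of all tested genes passed), and the median difference was 0.38. An unadjusted limma p under 0.05 was found for 4 of the 30 and for 503 of 7098 tested genes. FVBn is a single array, whose spread had to be assumed to be that of the other groups, so a lack of calls against it says nothing about whether the levels differ. In limma 0 of 30 members passed between MOLF and FVBn, with a median of 0.19 (0.197% of all tested genes passed, 0.0564% higher in MOLF). An unadjusted limma p under 0.05 was found there for 2 of the 30 and for 271 of 7098 tested genes. Myh4 had the largest difference there, 1.80 (SE 0.362, adjusted p = 0.283).

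Read by level alone, 20 of 30 members had strain means in the order LP, NZB, ILn, MOLF, where 3.66% of all tested genes did: 10 of 11 fast genes and 0 of 4 slow genes. All 4 LP and NZB arrays lay above all 5 ILn, MOLF and FVBn arrays for 19 of 30 members, 10 of them fast and none slow (1.42% of all tested genes). The mean deviation of the 11 fast genes from their average over the 9 strain arrays was 1.46 and 1.41 in LP, 1.06 on both NZB arrays, −0.37 on both ILn arrays, −1.15 and −1.27 in MOLF and −1.82 in FVBn. For the 4 slow genes it stayed between −0.40 and 0.40 on all 9. That mean leaves out Tnnc1 and Myl3, at the floor on all 9, and among these arrays Myl2 exceeded the floor in LP alone. The tested probe set of Myh7 was near the floor (4.86) on the array with no strain name, where its untested set was at 8.70. The tested probe sets of Tnni1 and Tnnt1 exceeded the floor on all 9 strain arrays, with LP to MOLF differences of 0.31 and −0.35. The part of low signal in the flat slow mean was not tested. The difference between the fast and the slow set was not tested.

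**Figure D3:**
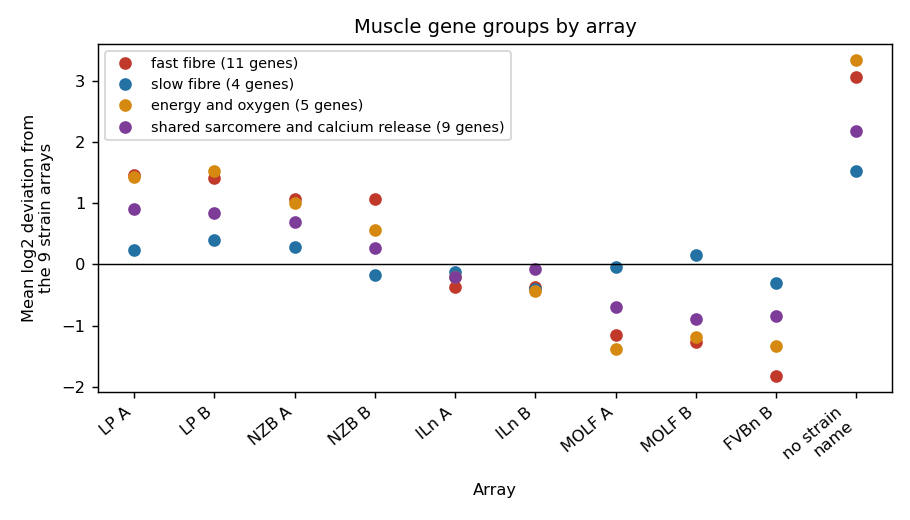
Mean log2 deviation of each group of tested muscle genes from its average over the 9 strain arrays (vertical axis) on each of the 10 arrays (horizontal axis). Fast genes run from −1.82 on FVBn to 1.46 on LP A, slow genes stay between −0.40 and 0.40 on the strain arrays, and the array with no strain name is highest in all 4 groups.

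The LP to MOLF difference of the fast genes appeared within each shared title date. LP and MOLF share 2 of the dates, and the median LP to MOLF difference of the 30 members was 2.17 on one and 2.24 on the other, with 2.85 and 2.44 for fast genes and 0.07 and 0.39 for slow genes. Acta1 differed by 3.58 and 3.86, and Myh1 by 3.76 and 3.74. For NZB against ILn, which also share 2 dates, the medians were 1.28 and 0.95. With the date as a block in the fit 8 members passed in LP against MOLF, 1 in NZB against MOLF and 0 in LP against ILn, where Acta1 had an adjusted p of 0.156, Tnnc2 0.242, Myh4 0.302 and Myh1 0.41.

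Over the 9899 tested probe sets, 2 of the strain arrays were unlike the rest. The correlation of MOLF A with NZB B was 0.927, and that of either with the remaining 7 was 0.812 to 0.868. Correlations among the 7 were 0.931 or more. Of the 10 LP to MOLF calls, those of Acta1, Eno3, Myh1 and Pygm held when MOLF A and NZB B were left out. Of the 8 F test calls and the 4 LP to ILn calls, those of Acta1 and Myh1 held in each. None of the 8 NZB to MOLF calls held. The median LP to MOLF difference was then 2.06. This fit left MOLF and NZB with 1 array each and had fewer degrees of freedom, so a call can be lost in it with little change in the difference. Without LP A or LP B, Acta1 alone of the 10 passed. The log2 ratio of 3′ to 5′ probe sets of actin, a sign of RNA quality, was 0.94 to 1.12 on the LP and NZB arrays. It was 0.60 and 0.78 on MOLF and 0.22 to 0.28 on ILn and FVBn. The same ratio of Gapdh was 0.19 to 0.37 on the LP, NZB and MOLF arrays and −0.41 to −0.21 on ILn and FVBn. The part of RNA quality in the muscle differences was not tested.

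Other cell type markers moved too. The mean deviation of 7 tested salivary gland genes (of 10 listed) was −2.33 to −1.62 on the LP and NZB arrays, −0.35 and −0.16 on MOLF, 2.57 and 2.62 on ILn and 3.45 on FVBn, with no listed gene at the floor on all 9. For 6 tested adipocyte genes (of 10) it was 0.45 on both LP arrays and −0.34 to −0.02 on the other 7. Pparg and Cidec were at the floor on all 9. In limma none of the 6 passed in any of the 8 comparisons, where 0.0141% to 0.662% of all tested genes passed. In LP against MOLF 4 of the 6 were higher in LP (3486 of 7098 tested genes). Slc2a4, among the 6, is also on the wider muscle list below. For 8 fibroblast genes the mean deviation was 0.35 to 0.58 on FVBn and ILn. It was −0.35 to −0.06 on the LP, NZB and MOLF arrays, with none of the 8 at the floor on all 9. In limma 1 of them, the collagen gene Col3a1, passed, lower in LP than in ILn (0.394% of all tested genes passed there). An unadjusted p under 0.05 was found for 7 in NZB against ILn (620 of 7098 tested genes) and 6 in ILn against MOLF (506 of 7098). For 8 luminal epithelial genes the mean deviation stayed between −0.25 and 0.24. In limma Krt19 alone of these passed the F test (adjusted p = 0.0475), and it was higher in ILn than in MOLF (log2 difference 1.57, adjusted p = 0.0196). Of the 7 salivary genes 6 passed the F test (0.662% of all tested genes) and 4 LP against MOLF (0.437%). Of those 4, 3 were lower in LP, and Car6 was higher (log2 difference 1.92, adjusted p = 0.0348). The part of these markers in the muscle differences was not tested. Of 8 tested cardiac genes (of 9) none passed in LP against MOLF by limma, where 0.437% of all tested genes did. An unadjusted p under 0.05 was found for 2 of the 8 (457 of 7098 tested genes). Myl7, an atrial light chain, was at the floor on all 9 strain arrays.

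A wider list of 76 other skeletal muscle genes, of which 46 had a probe set and 40 were tested, had 0 past the test in each of the 8 comparisons by limma. Between 0.0141% and 0.662% of all tested genes passed in these comparisons, so 0 of 40 is near the share of all genes. In LP against MOLF 10 of the 40 had an unadjusted p under 0.05 in limma, where 457 of 7098 tested genes did. The median difference of the 40 was 0.40, with a range of −0.93 to 3.16. The largest differences, named after their values were seen, were those of Cox6a2, a muscle form of a cytochrome oxidase subunit (3.16, SE 0.723, adjusted p = 0.223), and Ckmt2, the mitochondrial creatine kinase of muscle (2.76, SE 0.514, adjusted p = 0.115). Of the 40, 9 had strain means in the order LP, NZB, ILn, MOLF (3.66% of all tested genes). Of the 46, 4 were at the floor on all 9 strain arrays.

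Second probe sets of a gene often differed from the first. Of the 12 members with several probe sets, 9 had at least 2 tested, and for 8 of these the LP to MOLF differences were more than 1 apart on the log2 scale. In 5 genes 1 probe set passed and the other did not (Atp2a1, Myh4, Pvalb, Actn3 and Tpm2), in 4 none passed, and in 0 did both pass. The levels of different probe sets cannot be set against each other, so only the pattern over arrays is compared here.

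Atp2a1, the calcium pump of the fast reticulum, is one whose call depends on the probe set. Probe set 162223_f_at measured 10.08 ± 0.12 in LP (SD, n = 2), 9.23 and 8.74 in NZB, 6.87 and 6.90 in ILn, 4.86 and 6.04 in MOLF and the floor in FVBn, and LP was 24.8-fold above MOLF (log2 difference 4.63, SE 0.405, adjusted p = 0.00574). Probe set 98126_s_at, which stands for the gene in the counts, measured 10.56 and 10.86 in LP, 10.58 on both NZB arrays, 8.98 and 8.89 in ILn, 8.81 and 7.28 in MOLF and 6.71 in FVBn. Its difference of 2.67 did not pass (SE 0.430, adjusted p = 0.0655). Both gave LP and NZB above the other strains.

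Pvalb, the parvalbumin that soaks up calcium in fast fibres, behaved alike. Probe set 96720_f_at measured 7.58 and 7.64 in LP, 6.85 and 6.09 in NZB, 5.10 on ILn B and the floor on ILn A, MOLF and FVBn, so LP was at least 7.23-fold above MOLF (adjusted p = 0.0262). Probe set 96719_i_at lay between 9.46 and 9.98 in MOLF, ILn and FVBn and between 10.62 and 10.97 in LP and NZB, a difference of 1.05 between LP and MOLF (SE 0.209, adjusted p = 0.139).

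For Myh4, Ckm and Tpm2 the second probe set did not show the order. Probe set 161545_r_at of Myh4 ranged from 5.17 to 6.78 with LP 0.03 above MOLF, against 3.99 for 98488_at. Probe set 160175_at of Ckm differed by 0.02, against 2.28 for 161569_f_at, and 161320_r_at of Tpm2 was above the floor on MOLF A and NZB B alone. Probe set 162164_f_at of Actn3 differed by 1.09 (SE 0.486), with MOLF A at 6.86 and MOLF B at 5.51, whereas 100879_at was at the floor on MOLF A. The second probe set of Tnnc2, 93259_at, was at the floor on all 10 arrays. For Fhl1, probe set 97498_at differed by 2.73 (adjusted p = 0.0995), against 0.73 for 97500_g_at, while 97499_at was at the floor. Among the strain arrays the second set of Mylpf, 162101_f_at, was above the floor on the LP arrays alone, so its difference of 0.49 is at least 1.41-fold. That of Mb, 100615_at, was above the floor on MOLF A and NZB B alone, so its difference of −0.15 is limited by the floor.

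**Figure D4:**
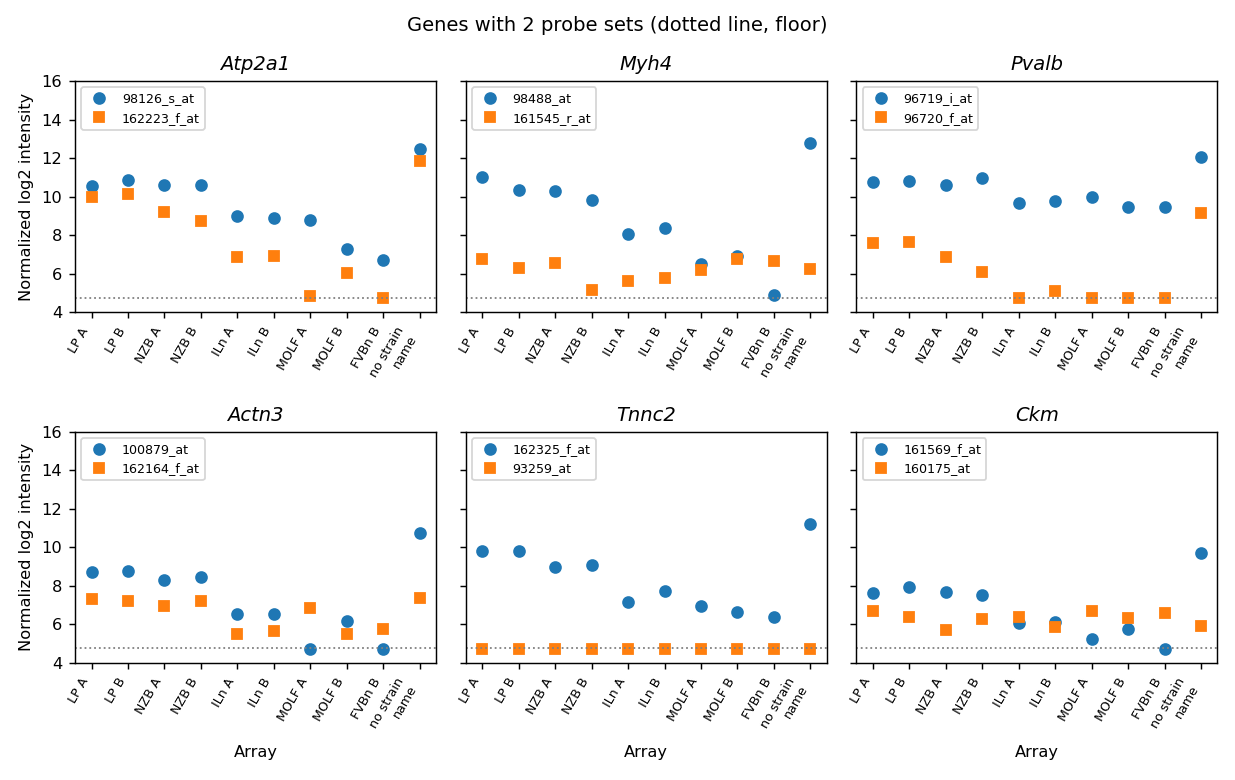
Normalized log2 intensity (vertical axis) of the probe sets of 6 muscle genes on each of the 10 arrays (horizontal axis), with the floor as a dotted line. Both probe sets of Atp2a1 and of Pvalb are higher on LP and NZB than on MOLF, while those of Myh4 and Ckm diverge and 93259_at of Tnnc2 stays at the floor.

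The array with no strain name had the highest level of most members. It lay above all 9 strain arrays for 26 of the 30 tested members, where 17.9% of all tested genes did so, and Myh7, Tnnt1, Sln and Myog were the exceptions. Over those 26 it exceeded the highest strain array by a median of 1.49 on the log2 scale. Acta1 was 13.0 there, Myh4 12.8, Atp2a1 12.46 and Myl1 12.25. Of the slow genes Myl2 was at 8.94 and Tnni1 at 8.62. The tested probe sets of Tnnt1 and Myh7 were at 7.71, below MOLF A, and at 4.86, near the floor, whereas 161361_s_at of Tnnt1 and 98616_f_at of Myh7, 2 probe sets not tested among the strains, were at 8.20 and 8.70. The adipocyte list mean on this array was 3.48, the fibroblast list 1.55 and the endothelial list 1.51 above the strain average, and the luminal epithelial list was at −0.76. With 1 array and no group, these are single values with no test.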

How the data were processed

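The data were Affymetrix mg_u74av2 arrays of biotin-labelled total RNA. The authors deposited 1 linear intensity for each probe set and array, with the summarising step not given in the sources used here. After trimming 2% of probe sets at each end, the mean was 500.2 on ILn A and 150.1 on the other 9 arrays. Among those 9, the median log2 intensity before normalization was 6.44 on MOLF A, 6.40 on NZB B and 5.96 to 6.10 on the rest.

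The log2 intensities of the 12422 probe sets that are not controls (12488 less 66) were quantile normalized over the 9 strain arrays in R 4.3.3 with limma 3.58.1, and that distribution was then imposed on the remaining array. Values under the 30th percentile (intensity 26.98) were raised to it, and 9899 probe sets above it on at least 2 of the 9 arrays were tested. The limma model (lmFit and trended eBayes) held a mean per strain name, with 4 residual and 3.30 prior degrees of freedom, a median SD within strains of 0.337 and Benjamini-Hochberg adjustment over all 9899 at 0.05. The scripts were checked on simulated data. The number of arrays limits the precision.

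A gene was represented by its tested probe set of highest mean, and a fold against a group at the floor is written "at least". Every member with a probe set could be named, and genes of the wider muscle list only where past a test; none passed, and the 2 named from it were chosen after their values were seen. In the platform annotation 10855 probe sets have 1 symbol, 396 have several and 1237 have none. RefSeq (GRCm38.p6) held the Entrez identifier of 10839. The members, the lists and the comparisons were chosen with earlier results of these data known. Alternatives were 2 other normalizations, a lower floor, 2 filters, the title date and the array letter as blocks, leaving out MOLF A with NZB B or each array in turn, and the lowest probe set of a gene.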

Additional observations from a re-analysis of the deposited data

Results flagged for a closer look

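Of the slow fibre genes, 2 gave a signal outside the comparisons, on the array with no strain name. Tnnc1, the troponin C of slow and heart muscle, was at 7.63 there and at the floor of 4.75 on all 9 strain arrays. Myl3, the slow essential light chain, was at 6.19 there and also at the floor on all 9. Each is 1 value on 1 array, with no replicate.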

How the results depend on the processing

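The number of members past the test depended on the settings more than the size of the differences did. Under the 3 normalizations and the date block, 26 of 30 members were higher in LP than in MOLF, and the median of all probe sets moved by at most 0.1.

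Title date block: 2 members passed in the F test, 1 in NZB against MOLF, 0 in LP against ILn and 0 in NZB against ILn. Without MOLF A and NZB B 3 passed in the F test, 6 in LP against MOLF, 0 in NZB against ILn and 0 in NZB against MOLF. Median centring gave 2 in LP against ILn, 0 in NZB against ILn and 1 in NZB against MOLF, and trimmed mean scaling 0 in NZB against ILn. The stricter filter gave 16 in LP against MOLF, and no filter gave 1 in LP against NZB and 2 in NZB against MOLF. The cause of these changes was not tested.

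With each strain array left out in turn, 2 to 10 passed in the F test, 1 to 11 in LP against MOLF, 0 to 7 in LP against ILn, 0 to 2 in NZB against ILn, 1 to 8 in NZB against MOLF and 0 to 1 in MOLF against FVBn. In LP against MOLF 1 passed without LP A or LP B and 5 without ILn A or ILn B, where fewer arrays also gave fewer degrees of freedom. In LP against ILn 0 passed without any 1 of the LP or ILn arrays.

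Deviations of the A arrays correlated at −0.707 for MOLF with NZB and from −0.0228 to 0.131 (LP with MOLF) for the other pairs of strains. MOLF A and NZB B, the 2 arrays unlike the rest, carry different letters, so the −0.707 cannot decide whether the letters pair the arrays. The other values gave little sign of pairing. With the letter as a replicate block 6 passed in the F test, 7 in LP against MOLF, 2 in LP against ILn and 4 in NZB against MOLF.

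Of the LP to MOLF differences, 7 that did not pass changed sign. With each array left out in turn Myh7 ran from −0.86 (without MOLF A) to 0.31 (without MOLF B; 0.13 without LP A), Sln from −0.81 to 0.55 in the same settings (0.42 without LP A, 0.09 with the lower floor), Cacna1s from −0.47 (without MOLF B) to 1.91 and Tcap from −0.21 (without MOLF B) to 1.54. Tnni1 ran from −0.17 to 0.78, Tnnt1 from −1.0 to 0.29 and Myog from −1.83 to 0.13, and −0.17, 0.29 and 0.13 were their values without MOLF A, alone or with NZB B.

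Over all probe sets 74 passed in the F test (36 with median centring, 18 with the date block, 31 with the letter block, 19 without MOLF A and NZB B), and 44 in LP against MOLF (27, 33, 31 and 19). The counts were 43 in LP against ILn (28, 7, 22 and 41), 38 in NZB against MOLF (3, 2, 12 and 0), 34 in NZB against ILn (26, 16, 19 and 11), 40 in ILn against MOLF (26, 6, 20 and 18), 23 in MOLF against FVBn (21, 10, 14 and 12) and 1 in LP against NZB (0, 0, 0 and 1). With no filter on dim probe sets, MOLF against FVBn gave 97, NZB against MOLF 20 and LP against NZB 7. LP against NZB gave 6 with the stricter filter, 2 with the lower floor and 0 with trimmed mean scaling, and ILn against MOLF gave 20 with the lower floor.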
